A study of Mus musculus with 44 samples.

Results

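Among 25697 probes on Illumina bead arrays, 70 detected RNA recovered with beads from day 6 C2C12 cells while the day 6 input RNA of that cell line gave almost no signal at the same probes. A probe counts as detected on an array when its detection p-value, the deposited measure of signal over negative-control probes, is under 0.05. The 70 probes were detected on all 4 AUF1 pulldown arrays and on at least 3 of 4 IgG pulldown arrays of day 6, and were missed on at least 4 of 5 input arrays of day 6. The members were thus chosen by their day 6 detection p-values, and everything measured on day 6 describes the choice and supports no test.

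AUF1, the product of Hnrnpd, recognises stretches rich in A and U, mostly in the untranslated ends of mRNAs, and is known to change the decay and translation of its target mRNAs. In RNA immunoprecipitation a cell lysate is mixed with antibody-coated beads, the beads are washed, and the RNA that stays on them is read out. Control IgG beads recover RNA that sticks to beads or to any antibody, and input RNA shows what the cells contained before the beads were added. C2C12 is a mouse myoblast line that divides in serum-rich medium and leaves the cell cycle, then fuses into myotubes, when serum is lowered.

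All groups were the C2C12 line, labelled female, with no transgene, knockdown or drug named. Day 0 cells grew in DMEM with fetal bovine serum, and cells of later days were in DMEM with a lower share of horse serum. AUF1 pulldown was measured on day 0 (4 arrays), day 2 (3), day 4 (3) and day 6 (4), and IgG pulldown on day 0 (4), day 2 (3), day 4 (4) and day 6 (4), with protein-A beads carrying an AUF1 antibody or control IgG. Input was measured on days 0, 3 and 6 (5 arrays each) and is titled DNA but described as RNA. RNA was amplified from an oligo-dT primer and labelled with biotin. Nothing states that arrays of a group came from separate cultures, so p-values measure the spread between these arrays, which may be technical.

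The probes carry Illumina identifiers alone, and the sources used here pair none of the 70 with a gene (0 matched), so each is named by its identifier and the cell type could not be checked against marker genes. Brightness depends on the probe as well as on the RNA, so tests compare levels within a probe, and where members are ranked or pooled by level this describes array signal, not amounts of RNA. Pulldown arrays are numbered 1 to 32 and input arrays 33 to 47, so any difference between pulldown and input cannot be told apart from a difference between these series of arrays. Of all probes, 46.8% to 47% were detected on average in the input groups, 40.1% to 43% in the IgG groups and 29.7% to 39.9% in the AUF1 groups. On 5 pulldown arrays under 30% were detected: AUF1 array 10 of day 0 (28.6%), AUF1 arrays 4 (29.2%) and 12 (24.4%) of day 2, AUF1 array 22 of day 4 (24.5%) and IgG array 13 of day 4 (25.6%). Counts of members in tests are given with and without these arrays.

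The rule passed few probes at its last step. On day 6, 7445 probes were detected on all 4 AUF1 arrays, 7424 of these (99.7%) also on at least 3 IgG arrays, and 70 of those (0.943%) were missed by input. Of the 70, 35 were detected on no input array of day 6 and 35 on 1 of 5. With IgG, 59 were detected on 4 arrays and 11 on 3. The mirrored list, detected on all 5 input arrays and missed on at least 3 of 4 arrays of each pulldown, held 611 probes.

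Members gave signals near the limit of detection in the day 6 AUF1 pulldown. Levels are log2 of background-corrected, quantile-normalized signal, and unless stated otherwise come from all 44 arrays normalized together. The members' day 6 AUF1 means ran from 5.17 to 7.44 with a median of 5.79. The median raw signal of the members was 71 to 123.5 on the 4 AUF1 arrays, on which the lowest signal of any detected probe was 62.5 to 80.3. In day 6 input the members' means had a median of 4.50 and a highest value of 4.69.

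Just outside the rule stood 68 probes detected on 2 input arrays, with median levels of 6.01 with AUF1 and 4.61 in input. The members detected on 1 input array had medians of 5.88 and 4.53. A further 2 probes were detected on only 2 IgG arrays, and 105 on only 3 AUF1 arrays. Leaving out AUF1 array 16 and applying the rule to the arrays left gave 136 probes, and leaving out input array 35 gave 110. Such a list holds all members by its making, so the count could not fall.

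Between the antibodies the day 6 members lay close together. The AUF1 mean was above the IgG mean for 52 of 70 members, with a median difference of 0.17 (log2). For the 35 members detected on no input array of day 6, the fold over input is a lower bound, taken against each input array's dimmest detected probe where the member was dimmer. It ran from at least 1.45-fold to at least 5.19-fold with AUF1 (median 2.18) and from at least 1.25-fold to at least 6.00-fold with IgG (median 1.94). For the 35 detected on 1 input array, the measured difference had a median of 1.32 (log2, 0.76 to 3.01) with AUF1 and 1.10 (0.65 to 3.00) with IgG, and it too rests on input levels that were mostly undetected. These day 6 differences follow from the choice of the probes and were not tested.

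**Figure D1:**
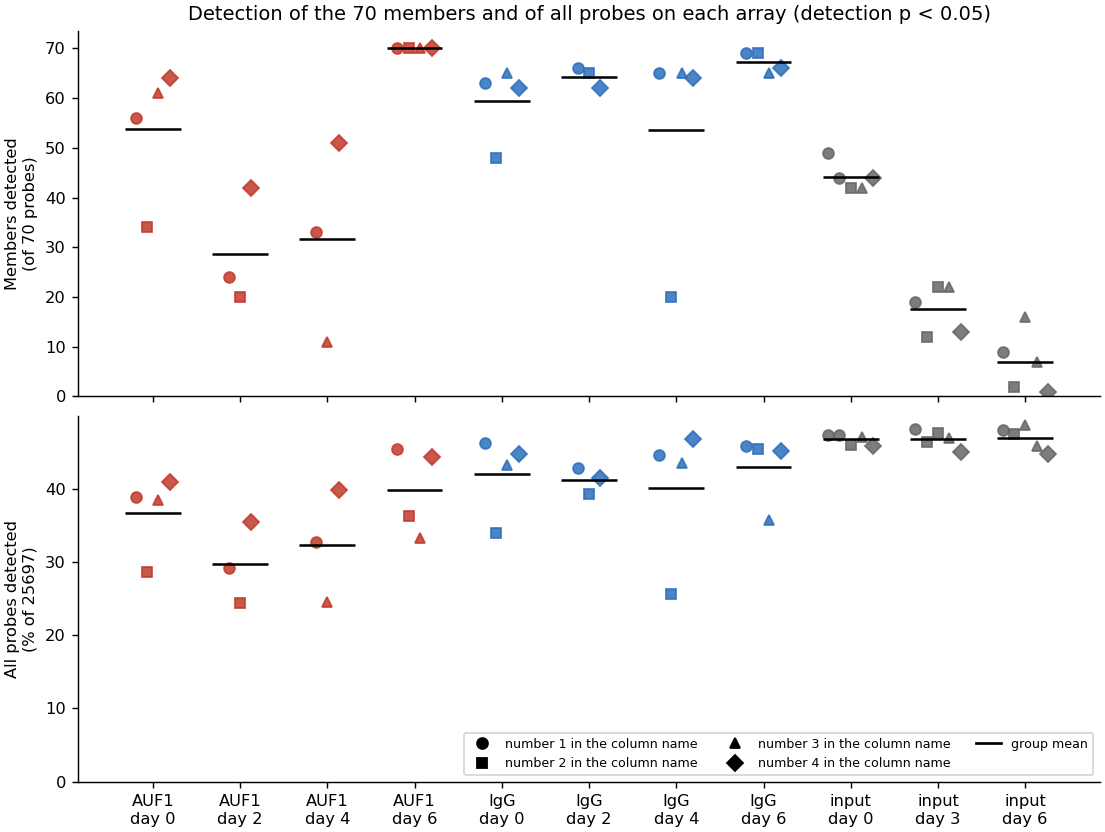
Number of the 70 members detected on each array (top) and percentage of all 25697 probes detected on the same array (bottom), by group, with symbols for the experiment number in the column names and bars for group means. IgG arrays detected at least 48 members except array 13 of day 4, which detected 20, AUF1 arrays of days 2 and 4 detected 11 to 51, and input fell from 42 to 49 members on day 0 to 1 to 16 on day 6. The day 6 counts were limited by the rule.

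On days that the rule did not use, the mean number of members detected per array was higher with IgG than with AUF1, a description with no test. IgG arrays detected 59.5 ± 7.77 members on day 0 (SD, n = 4), 64.3 ± 2.08 on day 2 (n = 3) and 53.5 ± 22.3 on day 4 (n = 4). AUF1 arrays detected 53.8 ± 13.6 (n = 4), 28.7 ± 11.7 (n = 3) and 31.7 ± 20.0 (n = 3) on the same days. Over days 0, 2 and 4 together, 62 of 70 members were detected on a larger share of the 11 IgG arrays than of the 10 AUF1 arrays, 3 on a smaller share and 5 on the same. Among the other 7354 probes detected in both day 6 pulldowns, 2656 had the larger share with IgG, 433 with AUF1 and 4265 the same.

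The 5 pulldown arrays with under 30% of all probes detected gave 11 to 34 members each. On day 0 the AUF1 arrays detected 56, 34, 61 and 64 members in experiments 1 to 4, and the IgG arrays of those experiments 63, 48, 65 and 62. Experiment 2 was the lowest with both antibodies, and these arrays detected 28.6% and 34% of all probes. On the AUF1 arrays of days 0, 2 and 4, members detected rose broadly with the total. Array 12 detected 20 members with 24.4% of all probes, array 22 detected 11 with 24.5% and array 26 detected 64 with 40.9%. On day 2 IgG array 11 detected 65 members with 39.3% of all probes, and IgG array 27 detected 62 with 41.5%. AUF1 array 6 of day 4 detected 33 members with 32.7% of all probes. Input arrays detected 44.7% to 48.7% of all probes and 1 to 49 members, with the day 6 counts limited by the rule. The part of array quality in the difference between antibodies was not tested.

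Individual members ranged from steady to almost unseen outside day 6. Detection on all 10 AUF1 and all 11 IgG arrays of days 0, 2 and 4 was found for 4 members: ILMN_1227434, ILMN_1246130, ILMN_2707976 and ILMN_2952730. At the other end, ILMN_2809998 was detected on none of these pulldown arrays and on none of the 10 input arrays of days 0 and 3. No input array of those days detected ILMN_2593476, ILMN_2661289 or ILMN_2817717 either. Of these, ILMN_2661289 was detected on 8 of 10 AUF1 and 11 of 11 IgG arrays. The members in this paragraph were singled out after their values were seen.

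The day 0 arrays gave a mostly different list. The same rule applied to day 0 found 48 probes, of which 4 were members (5.71% of the 70 and 8.33% of the 48): ILMN_1215073, ILMN_1246056, ILMN_2661289 and ILMN_2748337. Of the other members, 28 met the pulldown part of the rule on day 0 but were detected in day 0 input, 12 met the input part but were missed in a pulldown, and 26 met neither part.

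Input detection of the members fell with differentiation. On day 0, 26 members were detected on all 5 input arrays, 8 on 4, 30 on 1 to 3 and 6 on none. Input arrays detected 44.2 ± 2.86 members on day 0, 17.6 ± 4.83 on day 3 and 7.0 ± 6.04 on day 6 (SD, n = 5 each), the last fixed by the rule. No member was detected on all 5 input arrays of day 3, and 25 were detected on none. With detection at p under 0.01 in place of 0.05, 27 members rather than 43 were detected on at least 3 of the 5 day 0 arrays.

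Members were some of the probes that input lost. In all, 342 probes were detected on at least 4 of 5 input arrays on day 0 and on at most 1 of 5 on day 6. Of these 342, 34 (9.94%) were members and 74 were detected on none of the 8 day 6 pulldown arrays. The other 234 were detected on some of those arrays without meeting the rule. Members are 70 of all 25697 probes, but they and the 342 share the condition on day 6 input.

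**Figure D2:**
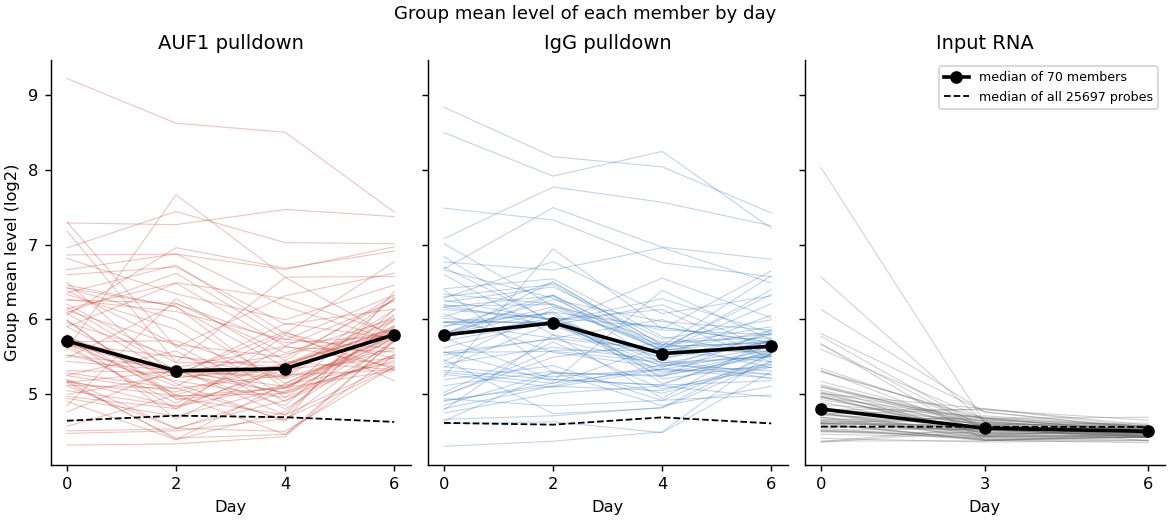
Group mean level (log2, all 44 arrays normalized together) of each of the 70 members by day in AUF1 pulldown, IgG pulldown and input, with the median of the members (thick line) and of all 25697 probes (dashed). The members' median falls in input from 4.80 on day 0 to 4.50 on day 6 and stays between 5.31 and 5.95 in the pulldowns. The day 6 levels follow from the choice of the probes, and pulldown and input are separate series of arrays.

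The difference of input RNA between day 0 and day 3 came from arrays that the rule did not use, and was tested on the 15 input arrays normalized alone. The day 6 input arrays, which the rule used, also entered the spread of each probe, so the p-values are not free of the choice. Members' levels on day 6 had a median SD of 0.10, against 0.19 on day 0 (all 44 arrays normalized together). Among the 52 members that passed the filter of detection on at least 3 input arrays, 31 were lower on day 3 and 0 were higher (limma, Benjamini-Hochberg adjusted p under 0.05). Of all 13750 probes tested, 20.3% were lower and 17.2% higher. Of the 52, 43 passed the filter on day 0 arrays alone, so this count describes only those members, and 18 members were not tested. Members were also chosen as missed in day 6 input, which favours probes that fall in input. Both conditions make a call of lower likelier and a call of higher less likely, so the shares are a description. Without the filter, 32 of 70 members were lower and 0 higher, where 10.0% of all probes were lower, and the median change was -0.33 for members and -0.01 for all probes. A fit of all 44 arrays together, in which the pulldown arrays also set the spread of each probe, called 11 of 70 members lower, where 10.5% of all probes were. In bulk RNA, fewer cells of a type and less RNA per cell cannot be told apart.

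The lowest called change was that of ILMN_1227434, which also had the highest day 0 input level of any member. Its input levels (15 input arrays normalized alone) were 7.38, 7.77, 9.0, 8.58 and 8.82 on day 0 and 4.38, 4.36, 5.14, 4.90 and 4.59 on day 3. Every day 3 array lay below every day 0 array, and on day 3 it was detected on 2 of 5 arrays. The change was -3.64 ± 0.26 (log2, SE; limma adjusted p = 1.33e-08).

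ILMN_2745425 followed the same course in input, from 7.36, 6.95, 6.75, 6.41 and 6.98 on day 0 to 4.55, 4.47, 4.95, 4.70 and 4.66 on day 3. The groups did not overlap, and the change was -2.22 ± 0.16 (limma adjusted p = 1.15e-08). Both of these probes kept their calls under all 15 alternatives tried for them.

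In the pulldowns the mean level of ILMN_1227434 was also lower on day 6 than on day 0, but lay above its input levels of days 3 and 6. The AUF1 mean was 9.22 on day 0 and 7.44 on day 6. With all 44 arrays normalized together, its AUF1 levels were 9.29, 10.34, 9.22 and 8.05 on day 0, 8.67, 8.94 and 8.26 on day 2, 8.41, 8.91 and 8.19 on day 4, and 6.78, 7.03, 8.22 and 7.70 on day 6. With IgG its group means were 8.84 ± 0.78 on day 0 (SD, n = 4), 8.18 ± 0.37 on day 2 (n = 3), 8.04 ± 0.32 on day 4 (n = 4) and 7.42 ± 0.52 on day 6 (n = 4). AUF1 and IgG overlapped on each of the 4 days. Input stood at 8.03 ± 0.72, 4.61 ± 0.25 and 4.42 ± 0.14 on days 0, 3 and 6 (n = 5 each). The day 6 levels of this probe follow from the rule and from its naming. Pulldown and input are separate series of arrays, and the contrast between them was not tested here.

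ILMN_2707976, named for its high day 6 pulldown level, stood at like pulldown levels on days 0 and 6. With AUF1 it was at 7.54, 7.61, 7.40 and 6.61 on day 0 and at 7.58, 7.53, 7.40 and 6.99 on day 6, and with IgG at 6.93, 7.32, 7.56 and 6.52 on day 0 and 7.50, 7.44, 7.19 and 6.87 on day 6. Its input levels were 5.85, 5.86, 6.57, 6.15 and 6.22 on day 0 and 4.57, 4.39, 4.49, 4.81 and 4.42 on day 6. The pulldown arrays of both days overlapped, whereas the input arrays did not. Its day 6 levels follow from the rule and from its naming, so this contrast describes the choice and was not tested.

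Pulldown and input were then compared on day 0, on arrays that the rule did not use but with the same confounding with array series. The fit covered all 44 arrays, so the day 6 arrays of the rule entered the normalization and the spread of each probe. The p-values are therefore not free of the choice. Members were higher in the pulldowns: 39 of 70 with AUF1, where 17% of all 15410 probes tested were higher, and 41 of 70 with IgG, where 14.9% were higher (limma adjusted p under 0.05). With either antibody 0 members were lower, where 19.7% and 16.7% of all probes were. All 70 passed the filter of detection on at least 3 of the 44 arrays, as their detection on day 6 ensured. The median difference was 0.87 (log2) with AUF1 and 0.92 with IgG, against 0.03 over all probes tested for each. Both comparisons use the same 5 input arrays.

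The other 7354 probes detected in both day 6 pulldowns serve as a second background for these counts, with no test between the lists. They were brighter than the members, also in day 0 input (median level 7.55 against 4.80), so they are not a like background. Of them, 29.4% were higher with AUF1 and 26.4% with IgG, with median differences of 0.24 and 0.21. Without the 5 pulldown arrays of low detection, 43 members were higher and 1 lower with AUF1, where 18.1% of all probes were higher and 18.1% lower. With IgG 45 were higher and 1 lower, where 18.1% and 19.7% of all probes were. Median scaling in place of quantile normalization moved the median of all probes by -0.36 with AUF1 and gave 10 members higher and 3 lower, with a members' median of 0.33, where 3.52% of all probes were higher and 30.7% lower. With IgG the shift was -0.07 and the count 36 higher and 1 lower, where 6.87% and 15.9% of all probes were.

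**Figure D3:**
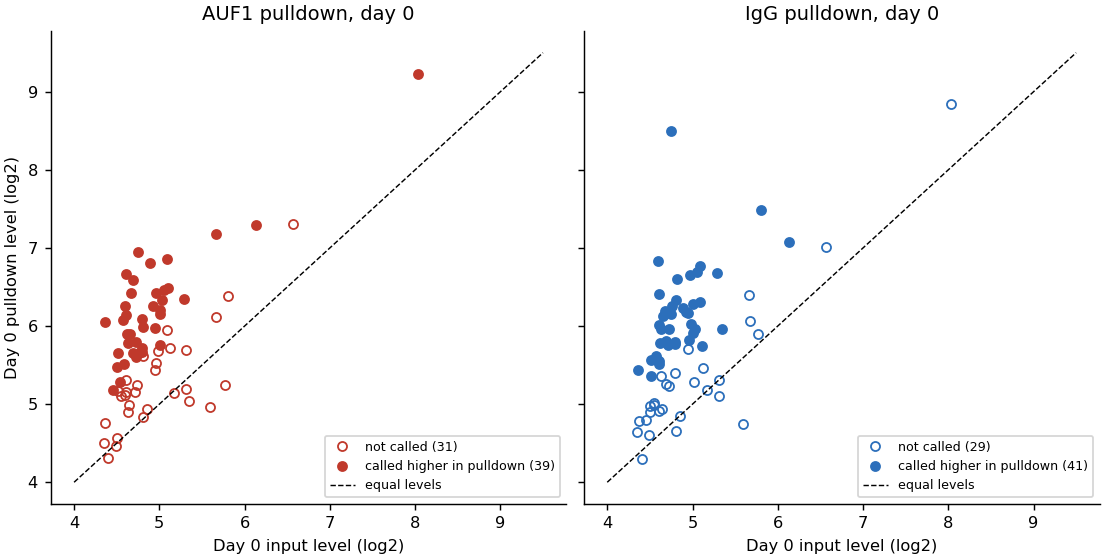
Day 0 group mean level of each member in AUF1 pulldown (left, n = 4) and IgG pulldown (right, n = 4) against its day 0 input level (n = 5), in log2 with all 44 arrays normalized together. Filled points are the 39 and 41 members called higher in the pulldown, the dashed line marks equal levels, and most points lie above it on both sides.

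ILMN_1246130 showed the largest AUF1 difference from day 0 input among the members called. Its levels were 7.40, 7.01, 6.99 and 6.41 with AUF1 and 8.66, 10.05, 8.84 and 6.45 with IgG, against 4.77, 4.69, 4.61, 4.64 and 5.02 in input. Every pulldown array lay above every input array, although 4 of the 5 input arrays detected it. AUF1 was higher than input by 2.21 ± 0.50 (log2, SE; limma adjusted p = 0.000516) and IgG by 3.75 ± 0.50 (limma adjusted p = 2.77e-07).

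ILMN_2512442 was next, at 6.76, 6.91, 6.47 and 6.51 with AUF1, 6.50, 6.15, 7.07 and 5.91 with IgG, and 4.45, 4.33, 4.94, 4.47 and 4.82 in input. The pulldown arrays again lay above all input arrays, of which 2 detected the probe. The differences were 2.06 ± 0.33 (limma adjusted p = 6.88e-06) and 1.80 ± 0.33 (limma adjusted p = 6.47e-05).

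Where no array of the input group detected a member, its fold against input is a lower bound. ILMN_2727153, detected on 0 of 5 day 0 input arrays, was at least 2.67-fold higher with AUF1 (limma adjusted p = 2.3e-05) and at least 1.74-fold higher with IgG (limma adjusted p = 0.00500). The bound was formed as on day 6. On day 6, ILMN_1246130 was detected on no input array and was at least 5.19-fold higher with AUF1 and 6.00-fold higher with IgG, as a description. ILMN_3097131, detected on no day 6 input array either, gave bounds of 3.08-fold and 3.82-fold.

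ILMN_2690144 had the lowest day 0 input level of any member and was hardly seen on day 0 at all. It stood at 4.33, 4.28, 4.38 and 5.03 with AUF1 and 4.52, 4.3, 4.98 and 4.76 with IgG, and was detected on 1 and 2 of these arrays and on none of 5 input arrays. By day 6 it was at 4.97, 5.78, 5.77 and 5.25 with AUF1 and at 5.09, 5.31, 6.16 and 5.46 with IgG. Pulldown against input on day 0 did not pass the test for this probe (limma adjusted p = 0.671 with AUF1 and 0.437 with IgG), and with input undetected no fold is given.

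The members were also split by day 0 input detection, so their input levels are ordered by the split itself. At least 3 of 4 AUF1 arrays of day 0 detected 31 of the 34 members seen on 4 or 5 input arrays, 22 of the 30 seen on 1 to 3, and 2 of the 6 seen on none, and with IgG it was 33, 25 and 2. The members called higher in AUF1 pulldown than in input on day 0 numbered 19 of the 34, 18 of the 30 and 2 of the 6, and with IgG 21, 19 and 1. No difference between the classes was tested.

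**Figure D4:**
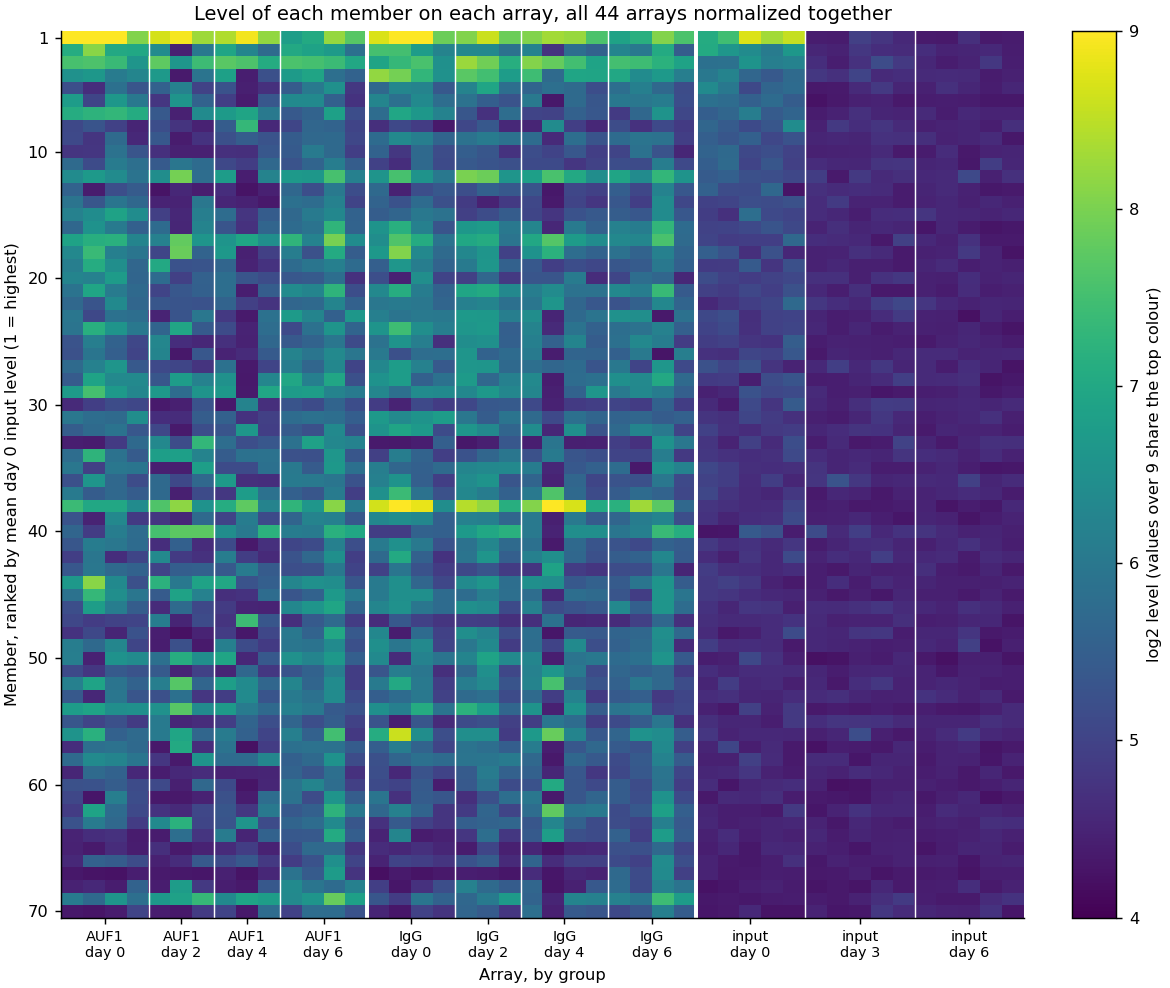
Level (log2, all 44 arrays normalized together) of the 70 members in rows, ranked by mean day 0 input level, on each array in columns, ordered by group. Input of days 3 and 6 is dark throughout, with the highest group mean at 4.80 and 4.69, while the pulldown columns mix bright and dark rows, day 6 least so. The day 6 columns follow from the choice of the probes. AUF1 pulldown of days 2 and 4 is patchy on each array, and 21 members were detected on no AUF1 array of day 2 and 12 on none of day 4.

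AUF1 and IgG pulldowns were compared on days 0, 2 and 4 to ask whether AUF1 recovered the members beyond the control, with the 29 pulldown arrays normalized alone. Averaged over these days, 17 of 70 members differed (24.3%), 3 higher and 14 lower with AUF1 (limma adjusted p under 0.05). Of all 13812 probes tested, 23.9% differed, 10.9% higher and 13% lower. The members' share is near that of all probes. Their median difference was -0.20 (log2), against -0.03 for all probes.

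All 70 members passed the filter of detection on at least 3 pulldown arrays through day 6. Without the 5 arrays of low detection 12 members were called, 4 higher and 8 lower, where 8.98% of all probes were higher and 9.31% lower. Under median scaling, which moved the median of all probes by -0.64, 0 were higher and 48 lower, with a members' median of -0.73, where 0.905% of all probes were higher and 46.8% lower. With a replicate block by experiment number, 38 were called, 12 higher and 26 lower, where 49.9% of all probes were. Leaving out 1 array gave 6 without IgG array 11, 9 without IgG array 1 or 3, 10 without IgG array 5 or 21, and 11 without AUF1 array 2, 4 or 22 or IgG array 17.

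On single days 0 members were called on day 0, day 2 or day 4 (limma), where 0.145%, 2.13% and 0.688% of all probes were, with 9, 16 and 7 members at an unadjusted p under 0.05. With the experiment number as a block the counts were 10 (6 higher), 19 (5 higher) and 11 (6 higher), where 12.8%, 26.2% and 24.6% of all probes were called. The day 4 arrays of equal number did not qualify as pairs. The smallest adjusted p of any member without the block was 0.158, 0.071 and 0.115 on the 3 days.

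**Figure D5:**
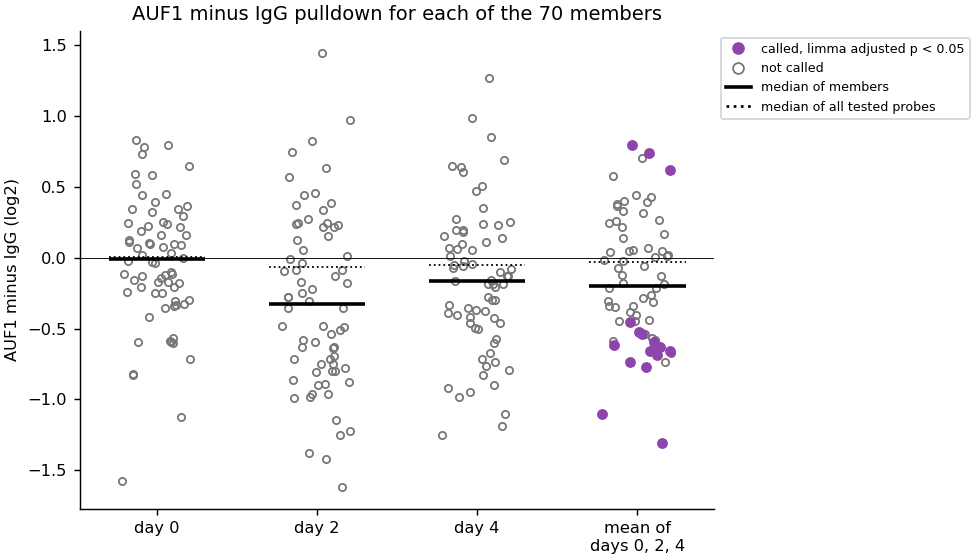
AUF1 minus IgG difference (log2, pulldown arrays normalized alone) of each of the 70 members on days 0, 2 and 4 and as the mean of these days, with medians of the members (solid) and of all 13812 tested probes (dotted). The 17 members called are filled and occur in the mean alone, 3 above 0 and 14 below, and under median scaling none was called above 0.

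ILMN_3097131 had the lowest called difference, and the values from here on, unless stated otherwise, come from the pulldown arrays normalized alone. With AUF1 it stood at 6.33, 6.45, 5.87 and 6.06 on day 0, 6.49, 4.36 and 5.73 on day 2 and 6.63, 4.42 and 5.08 on day 4. With IgG it stood at 8.01, 7.78, 7.09 and 6.33, at 7.55, 7.31 and 6.57, and at 7.26, 5.53, 6.75 and 6.72 on these days. The antibodies did not overlap on day 2 and did on days 0 and 4. With AUF1 it was detected on 2 of 3 arrays on each of days 2 and 4. The difference was -1.31 ± 0.30 (log2, SE; limma adjusted p = 0.00295), and the call held under all 28 alternatives. It was lower with AUF1 in all 4 same-numbered pairs of day 0 and all 3 of day 2.

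ILMN_1246130 differed by -1.10 ± 0.40 (limma adjusted p = 0.0485), and the groups overlapped on every day. It was lower with AUF1 in all 4 same-numbered pairs of day 0 (by -0.04 to -3.11), in all 3 of day 2 (by -0.03 to -0.83) and between the 3 same-numbered arrays of day 4, which did not qualify as pairs. With the replicate block the adjusted p was 0.0041. The call was lost without 16 of the 21 arrays left out in turn, and over all 28 alternatives the adjusted p ran from 0.000136 to 0.101.

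The members higher with AUF1 were ILMN_2727153, ILMN_2628668 and ILMN_3131766, the last outside the rule for naming. ILMN_2727153 was at 5.89, 5.51, 6.39 and 5.63 on day 0, 6.47, 6.66 and 7.15 on day 2 and 6.16, 6.71 and 6.57 on day 4 with AUF1. With IgG it was at 5.18, 4.80, 5.74 and 5.39, at 5.47, 5.83 and 6.52, and at 5.41, 4.52, 6.05 and 6.00. The antibodies overlapped on days 0 and 2 but not on day 4, and AUF1 was higher in all 4 same-numbered pairs of day 0 and all 3 of day 2. The difference was 0.79 ± 0.23 (limma adjusted p = 0.0144), and it turned to -0.36 under median scaling (adjusted p = 0.289).

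ILMN_2628668 was at 6.90, 7.04, 7.13 and 6.88 with AUF1 on day 0 and at 5.57, 6.76, 6.45 and 6.00 with IgG. On day 2 it was at 5.23, 4.46 and 6.19 against 5.17, 4.67 and 5.60, and on day 4 at 6.53, 6.72 and 5.82 against 4.92, 4.87, 5.38 and 5.20. All AUF1 arrays lay above all IgG arrays on days 0 and 4, but not on day 2, when 1 of 3 same-numbered pairs was lower with AUF1. On day 2 it was detected on 1 of 3 AUF1 and 2 of 3 IgG arrays. The difference of 0.74 ± 0.24 (limma adjusted p = 0.0263) turned to -0.08 under median scaling (adjusted p = 0.748), and the call was lost without AUF1 array 22 or 28 or IgG array 1 or 11 (adjusted p up to 0.0682). The third, ILMN_3131766, was higher by 0.62 ± 0.22 (limma adjusted p = 0.0467).

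Few members passed the test for a change across days in the pulldowns, which does not show that the others kept their levels. From day 0 to the mean of days 2 and 4, 3 of 70 members changed with AUF1 (1 higher, 2 lower) where 2.90% of all probes did, and 1 changed with IgG (lower) where 1.99% did (limma adjusted p under 0.05). The median change was -0.29 with AUF1 and -0.01 with IgG, against -0.05 and -0.01 over all probes. At an unadjusted p under 0.05 (limma) stood 20 members with AUF1 and 8 with IgG, against 2057 and 1399 of all 13812 probes. By sign alone, 50 members were lower and 20 higher with AUF1, where 55.3% of all probes were lower. With IgG 35 were lower and 35 higher. The change of the AUF1 minus IgG difference itself passed the test for 0 members and 0 of all probes (limma; 1 member and 243 of all probes at an unadjusted p under 0.05). Without the 5 arrays of low detection the counts of members called were 0 with AUF1 and 2 with IgG, where 1.93% and 3.08% of all probes were called. Under median scaling they were 0 and 0 (0.384% and 0.688% of all probes), and with the experiment number as a block across days 7 and 2 (8.99% and 4.79%). With AUF1 the count was 5 without array 4 and 6 without array 28, and with IgG it was 2 without array 13.

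ILMN_2776603 was the member that rose with AUF1, from 5.44, 4.80, 5.92 and 5.57 on day 0 to 7.34, 7.57 and 7.56 on day 2 and 6.25, 5.82 and 7.02 on day 4. Each day 2 array lay above each day 0 array, and day 4 overlapped day 0. The change was 1.49 ± 0.35 (limma adjusted p = 0.0153), and it was 1.29 without AUF1 array 10 (adjusted p = 0.0532) and 0.42 under median scaling (adjusted p = 0.622). With IgG the change was 1.14 ± 0.34, which did not pass the test (limma adjusted p = 0.0955).

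The members that fell with AUF1 were ILMN_2665715 and ILMN_1229350. ILMN_2665715 went from 6.00, 6.24, 6.69 and 6.23 on day 0 to 4.85, 4.55 and 5.93 on day 2 and 5.57, 4.71 and 5.28 on day 4, with no overlap with day 0, a change of -1.14 ± 0.25 (limma adjusted p = 0.00937). ILMN_1229350 went from 5.79, 5.59, 5.54 and 6.25 to 4.62, 4.61 and 5.31 on day 2 and 5.38, 4.68 and 4.84 on day 4, also without overlap, a change of -0.88 ± 0.19 (limma adjusted p = 0.00661). Each probe was detected on only 1 of 3 AUF1 arrays of day 2 and 2 of 3 of day 4. Both were missed on arrays 4, 12 and 22, all arrays of low detection, so the sizes of these falls rest partly on undetected levels. The calls were lost without AUF1 array 18 (adjusted p = 0.0587) and array 26 (adjusted p = 0.0533) respectively, and under median scaling (adjusted p = 0.100 and 0.298).

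ILMN_1229350 was also the member called lower with IgG. Its IgG levels were 6.51, 6.14, 6.37 and 6.56 on day 0, 5.78, 5.29 and 5.72 on day 2 and 5.54, 4.97, 5.64 and 5.44 on day 4, and no later array reached the day 0 arrays. The change was -0.90 ± 0.18 (limma adjusted p = 0.00493). In input it was at 4.85, 4.78, 5.26, 5.03 and 4.76 on day 0 and at 4.42, 4.37, 4.56, 4.93 and 4.60 on day 3 (input arrays normalized alone), and the groups overlapped through 1 day 3 array. Of the 31 members lower in day 3 input, 2 were called lower in AUF1 pulldown (6.45%) and 1 in IgG pulldown (3.23%), on other days and another normalization. Of all 2669 probes lower in day 3 input and tested in the pulldowns, 4.16% were called lower with AUF1 and 1.80% with IgG. Whether pulldown and input changed by different amounts was not tested.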

How the data were processed

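Per the file headers, the deposited table pairs a non-normalized signal intensity with a detection p-value at 25697 probes for 44 arrays of C2C12 RNA. The submitters' processing notes name GenomeStudio 1.6.0. The sources used here do not say whether the authors subtracted background. Columns name a group, an experiment and an array, and were assigned to groups. No columns held identical values. The members and lists were chosen with earlier results of these data known.

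The analysis used R 4.3.3 and limma 3.58.1 for normal-exponential background correction with controls inferred from detection p-values, an offset of 16, quantile normalization and log2. Pulldown arrays (29) and input arrays (15) were normalized alone, and all 44 together for pulldown against input. Quantile normalization forces one distribution on all arrays, so changes of total RNA are not measured. The filter, detection p under 0.05 on at least 3 of the fitted arrays, left 13812, 13750 and 15410 probes. Group means shared a single spread for each probe (lmFit, eBayes). The day 6 arrays, which the rule used, entered this spread in each fit. Benjamini-Hochberg adjustment ran over all tested probes, with calls at adjusted p under 0.05. The script was tested on simulated data. Array number limits the precision.

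Members named are up to 2 of the highest and 2 of the lowest called differences of a comparison, the 3 brightest on day 6, and the 2 brightest and 2 dimmest in day 0 input. With no gene names, the planned gene lists and cell type markers are not analysed here.

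To see whether the experiment number pairs AUF1 with IgG arrays, deviations from group means were correlated across probes. Same-numbered arrays gave 0.26 to 0.77 (day 0) and 0.11 to 0.48 (day 2), all above the limit of 0.1, and were taken as pairs. The lowest value on day 4 was -0.09, and pulldown with input gave -0.23 to 0.10 on day 0, so these were not. Arrays of different number reached 0.30 on day 0, 0.13 on day 2 and 0.47 on day 4. Input numbers repeat within days. The main fits used no pairs, and the replicate block by experiment number was an alternative to them.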

Additional observations from a re-analysis of the deposited data

Results flagged for a closer look

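Within groups of 4 or 5 arrays, 111 sets of values for named members and group summaries were searched for an array far from the others, and 8 were found. Chance alone flags about 1 in 20 groups, which is 5.55 here. Levels are log2 with all 44 arrays normalized together. IgG array 13 of day 4 detected 20 members, where the nearest array detected 64, and it also detected few of all probes (25.6%). Input array 33 of day 0 detected 49 members, the nearest array 44. The median level of the members on input array 47 of day 6 was 4.44, the nearest 4.49. ILMN_2745425 stood at 8.11 on AUF1 array 10 of day 0 (nearest 7.10), an array with 28.6% of all probes detected. ILMN_2690144 stood at 5.03 on AUF1 array 26 of day 0 (nearest 4.38), ILMN_2665715 at 6.42 on IgG array 23 of day 6 (nearest 5.48) and at 4.77 on input array 35 of day 6 (nearest 4.56), and ILMN_1227434 at 4.68 on input array 41 of day 6 (nearest 4.39). Their causes were not tested.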

How the results depend on the processing

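The number of members was 35 when all 5 input arrays had to miss the probe, 103 with detection at p under 0.01, and 70 to 136 when each day 6 array was left out in turn. As the rule was applied to the arrays left, the last count could only stay or rise. Members detected on at least 3 day 0 input arrays numbered 27 with p under 0.01 and 36 to 40 with 1 array left out. Leaving out an array could only keep or lower this count. The median scaling counts were 48 (mean of days 0, 2 and 4), 15 (day 2) and 2 (day 4) for AUF1 minus IgG, 13 for AUF1 minus input on day 0, and 0 for each pulldown against day 0. Under it the AUF1 minus IgG differences of ILMN_2727153 and ILMN_2628668 reversed to -0.36 and -0.081. The mean of AUF1 minus IgG gave 9 without a detection filter, 26 with all 44 arrays normalized together and 6 to 22 with 1 array left out. On day 2 leaving out 1 array gave 0 to 2, with 2 without AUF1 array 28 or IgG array 27. For AUF1 against day 0 the count was 5 without background correction, 1 in a fit of these groups alone, 0 without the arrays under 30% detected and 2 to 6 with 1 array left out. For IgG it was 2 without the arrays under 30% detected and 1 to 2 with 1 array left out. AUF1 and IgG minus input on day 0 gave 30 to 37 and 28 to 39 with 1 array left out. Input day 3 minus day 0 gave 25 to 33 with 1 array left out and 11 with all 44 arrays normalized together. The causes were not tested.

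With the experiment number as replicate block, AUF1 minus IgG gave 38 for the mean and 10, 19 and 11 on days 0, 2 and 4, and the pulldowns against day 0 gave 7 (AUF1) and 2 (IgG) with the number across days, a block chosen after seeing the data because the planned block within a day could not be fitted to a change across days. Pulldown against input on day 0 gave 39 and 40 with the number as block, so this block moved neither call count by over 1.5 times. Median scaling moved the AUF1 count of that comparison by more, as given above.

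Members lie near the detection limit, where a call of detected or missed can turn on a small change of signal, and background correction compresses differences there. Pulldown and input arrays form separate series. With 3 to 5 arrays a group, a call that was not made does not show equal levels.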
